A study of Mus musculus with 31 samples.

Results

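The comparison described here sets 3 libraries of long-term haematopoietic stem cells from mice given pegylated interferon alpha together with 5-azacytidine (COMBO) against 4 libraries from vehicle-treated mice, all carrying JAK2-V617F and a deletion of Dnmt3a (VFDM). These 7 of the 31 libraries of the study were chosen by their labels alone. The mutant marrow (SclCre;FF1;Dnmt3Δ/Δ;GFP) had been transplanted into wild-type mice in competition with a 10-fold excess of wild-type marrow. Treatment began 4 weeks later, when myeloproliferative disease had developed, and lasted 8 weeks, with interferon at 25 µg/kg weekly under the skin and azacytidine at 2 mg/kg daily into the peritoneum. The other groups used below were VFDM mice given interferon alone (IFN) or azacytidine alone (AZA), and mice with the same transgene, Cre and GFP but without the Dnmt3a deletion (VF) given COMBO or vehicle, with 4 libraries each. The deletion and the transgene were thus shared by both VFDM groups, and the Cre that switched them was driven by Scl, a gene of blood stem and progenitor cells. Ages are not given in the labels used here. The labels name no GFP gate, so the sorted cells could include wild-type competitor cells, and their share was not measured. Nothing in the labels says that each library came from a separate mouse, so p-values measure the spread between libraries.

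JAK2-V617F is a constitutively active form of the kinase that carries signals from receptors of blood growth factors to STAT5, and it drives overproduction of red cells, platelets and granulocytes. Interferon alpha signals through receptor-bound kinases to a transcription factor complex that binds interferon-stimulated response elements (ISREs) in the promoters of antiviral genes, and it is used to treat these diseases. Azacytidine is a cytidine analogue that enters RNA and DNA and traps DNA methyltransferases, and DNMT3A is a de novo DNA methyltransferase whose loss favours self-renewal of stem cells.

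Depth was lower in COMBO, with 17782394 to 31222213 counts per library against 32932549 to 45344180 in vehicle, and 18450 to 21262 rows of the table had at least 1 count in COMBO against 23753 to 26202 in vehicle. A level of 3 counts in 1 library corresponded to between 0.0941 and 0.173 CPM (the usual depth-scaled unit of counts) in COMBO and between 0.0632 and 0.0888 CPM in vehicle. CPM here are scaled with TMM factors and are not divided by gene length, so levels are compared between libraries and not between genes. The COMBO library with replicate number 3 stood apart from the others: the 4 adult globin genes took 1.81% of its counts, against 0.106% and 0.308% in COMBO libraries 2 and 4 and at most 0.00935% in vehicle. Several values below are given with and without it. The library labelled VFDM IFN 3 also stood apart, with 162 CPM of Dnmt3a and 113 CPM of the CreERT2 transgene. The other 3 IFN libraries had 101.6 to 111 CPM and 212 to 244 CPM. Both values lay within the ranges of VF COMBO, 104 to 193 CPM and 94.3 to 128 CPM. Whether its label matches its genotype was not tested. VF vehicle libraries 1 and 4 had 297 and 288 CPM of Dnmt3a, against 162 and 187 CPM in VF vehicle libraries 2 and 3, and were the shallowest of that group, with 18804444 and 24049488 counts.

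Among the genes of the sort gate (Lin- Kit+ Sca1+ CD150+ CD48-), Kit had 677, 585 and 515 CPM in COMBO libraries 2, 3 and 4, against 778, 805, 789.9 and 684 CPM in vehicle libraries 1 to 4, and did not pass the test (log2 change -0.37 ± 0.17 (SE), adjusted p = 0.138). Sca1, encoded by Ly6a, had 15.5, 18.01 and 11.6 CPM in COMBO and 15.3, 12.1, 13.3 and 12.8 CPM in vehicle (0.17 ± 0.28 (SE), adjusted p = 0.764). Slamf1, which encodes CD150, had 87.6, 94.7 and 95.4 CPM in COMBO and 74.8, 59.3, 72.7 and 93.3 CPM in vehicle (0.30 ± 0.22 (SE), adjusted p = 0.404). Cd48 was higher, with 16.8, 14.1 and 22.8 CPM in COMBO against 7.43, 7.603, 5.14 and 4.53 CPM in vehicle (1.54 ± 0.51 (SE), adjusted p = 0.0358). That call was lost without COMBO library 2, COMBO library 4, vehicle library 3 or vehicle library 4 (adjusted p between 0.0574 and 0.119 in these 4 fits). RNA of the gate's positive markers was thus present in all 7 libraries, and RNA of the excluded marker CD48 was not at 0 in either group.

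Dnmt3a RNA, which the deletion does not remove from the table, was at 51.6, 23.02 and 57.00 CPM in COMBO against 119, 119.7, 119 and 109 CPM in vehicle (-1.41 ± 0.24 (SE), adjusted p = 5.09e-05). The deleted exons are not given in the labels, so the gene total does not check the deletion. The human JAK2-V617F transgene is counted in 3 rows. Its exon 3 to 12 row had 59.5, 97.9 and 87.9 CPM in COMBO and 87.6, 72.96, 88.4 and 70.2 CPM in vehicle (adjusted p = 0.955). The exon 13 to 25 row, with 47.3, 76.8 and 69.9 CPM in COMBO against 99.7, 97.6, 81.3 and 95.2 CPM in vehicle, lay below all vehicle libraries but did not pass the test (-0.53 ± 0.38 (SE), adjusted p = 0.393). The inverted exon 13 to 25 row (adjusted p = 0.778) and CreERT2 (adjusted p = 0.242) did not pass either. The GFP row had 389, 1031 and 514 CPM in COMBO against 412, 355, 388 and 393 CPM in vehicle and missed the threshold (0.74 ± 0.28 (SE), adjusted p = 0.0719), with library 3 the highest. The transgene was therefore detected in every library of both groups.

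Of 22172 rows tested, 3551 differed between COMBO and vehicle at an adjusted p under 0.05 (16.0%; edgeR quasi-likelihood test with Benjamini-Hochberg adjustment). The 1224 rows higher in COMBO made up 5.52% of those tested and the 2327 rows lower in COMBO 10.5%, and the median log2 change over all rows was -0.08. These shares are the background for the counts of gene lists below. The lists and their members were chosen with earlier results of these data known, so the shares do not test the lists. Among protein-coding rows, 1089 of 14094 were higher and 1913 lower, and among the other 8078 rows 135 were higher and 414 lower. Each drug alone moved far fewer rows against the same vehicle libraries: 214 (0.965%) with interferon, of which 203 were higher (0.916%) and 11 lower (0.0496%), and 205 (0.925%) with azacytidine, of which 189 were higher (0.852%) and 16 lower (0.0722%). Without the library labelled VFDM IFN 3 the interferon count was 172. The plot of members called by gene list shows stem cell and Hox genes at one end and erythroid and interferon-stimulated genes at the other.

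**Figure D1:**
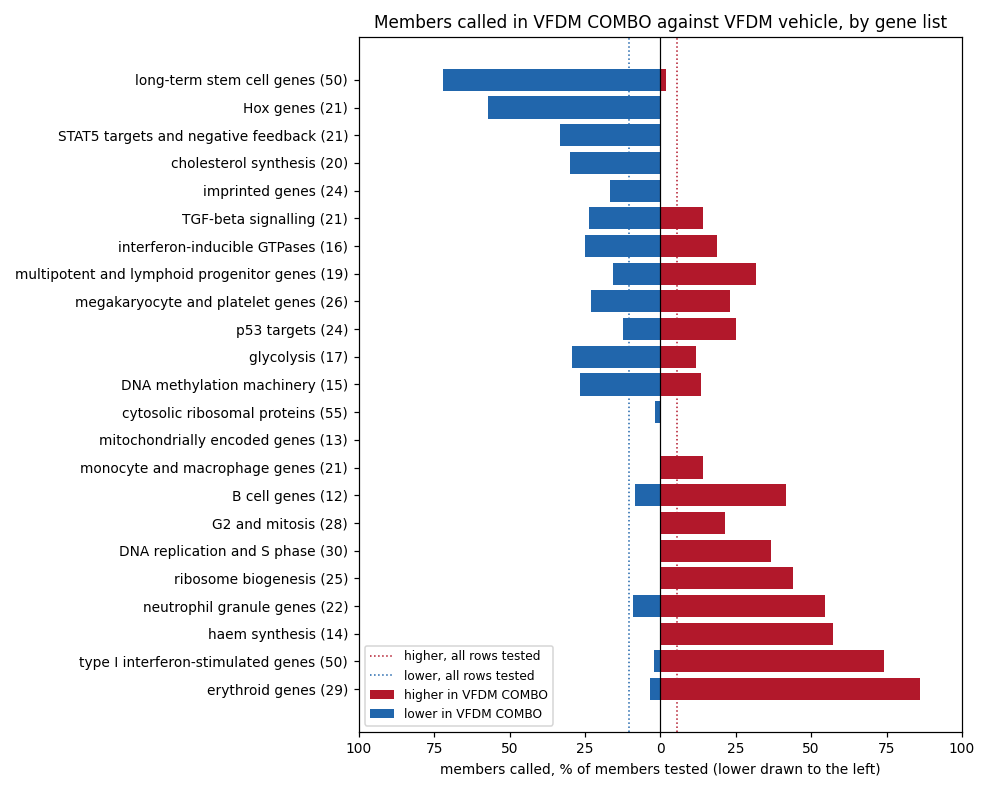
Percentage of the tested members of 23 gene lists that were called higher (red, to the right) or lower (blue, to the left) in VFDM COMBO against VFDM vehicle, with the number tested in brackets. Dotted lines mark the shares over all rows tested, 5.52% higher and 10.5% lower. As the lists were chosen with earlier results of these data known, the lines do not test them. The erythroid and interferon-stimulated lists reach farthest to the right, and the long-term stem cell and Hox lists farthest to the left.

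Most genes listed for long-term stem cells were lower. Of 50 listed, all tested, 36 fell, 1 rose and 13 did not pass the test, with a median log2 change of -1.93. The falls include Cd34, which rises as stem cells become progenitors, and the interferon-induced Ifitm1, both of which are counted in other lists too. Hlf (chr11:90336536-90390895, minus strand, mm10), a PAR bZIP transcription factor that preserves stem cells, had 33.1, 40.2 and 32.8 CPM in COMBO against 451, 506, 428 and 415 CPM in vehicle. Every COMBO library was far below every vehicle library, and the group mean was 12.7-fold lower (log2 change -3.67 ± 0.27 (SE), adjusted p = 5.8e-11). Mecom, which encodes the stem cell transcription factor EVI1, fell to 26.6, 43.6 and 32.97 CPM in COMBO against 261, 283, 290.0 and 307 CPM in vehicle (-3.05 ± 0.33 (SE), adjusted p = 9.11e-08). Esam, an adhesion molecule on the surface of stem cells, had 4.32, 2.705 and 5.68 CPM in COMBO and 74.02, 77.8, 78.4 and 74.9 CPM in vehicle (-4.15 ± 0.36 (SE), adjusted p = 1.13e-09). For Ltbp3, which binds latent TGF-beta, COMBO libraries had 19.5, 11.8 and 19.6 CPM, against 168, 160.3, 132 and 97.1 CPM in vehicle (-3.04 ± 0.26 (SE), adjusted p = 6.65e-10). For none of these genes did the groups overlap, but Hlf, Esam and Ltbp3 were also named by a rule that required this. As these are bulk samples, fewer cells with a transcript and less of the transcript per cell cannot be told apart.

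Procr, named here after its values were seen, encodes EPCR, a surface receptor used to isolate stem cells. It had 0.0315, 0.0575 and 0.439 CPM in COMBO and 35.9, 40.4, 33.97 and 34.6 CPM in vehicle (chr2:155751117-155755471, plus strand). COMBO libraries 2 and 3 were below the level of 3 counts, and the log2 change of -7.54 ± 0.87 (SE), adjusted p = 3.33e-07 became -6.95 (adjusted p = 1.13e-05) without COMBO library 2 and -9.62 (adjusted p = 1.03e-06) without COMBO library 4. Ifitm1, an interferon-induced membrane protein gene also carried by the stem cell list, was lower, with 11.3, 17.8 and 5.18 CPM in COMBO against 105, 138, 107 and 82.5 CPM in vehicle (-3.25 ± 0.47 (SE), adjusted p = 1.29e-05). The single member of the list that rose was Gfi1b, a repressor needed for erythroid and megakaryocytic development. It had 116, 54.8 and 56.8 CPM in COMBO against 37.9, 27.4, 37.1 and 36.2 CPM in vehicle (1.13 ± 0.27 (SE), adjusted p = 0.00326), and that call was lost without COMBO library 2 (log2 change 0.73 (adjusted p = 0.082)). Leaving out each COMBO library in turn, 33, 32 and 33 members fell without libraries 2, 3 and 4. Ifitm1 and Gfi1b were named after their values were seen.

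**Figure D2:**
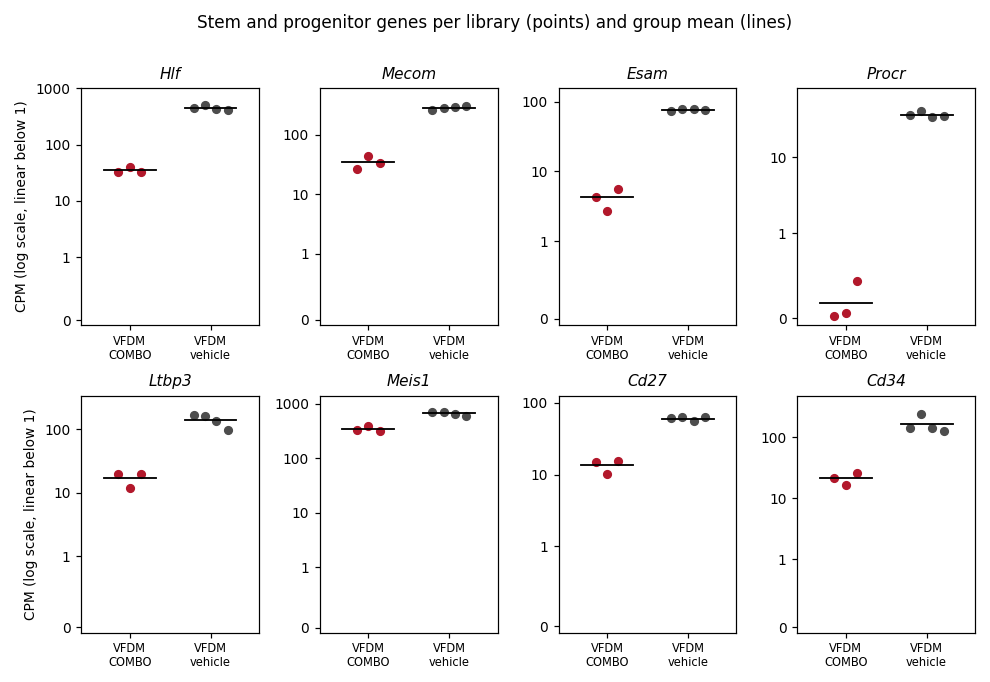
CPM of 8 stem and progenitor genes in each VFDM COMBO library (red) and each VFDM vehicle library (grey), on a log scale that is linear below 1; lines are group means. No COMBO library overlaps a vehicle library in any panel, and Procr is below 0.5 CPM in all 3 COMBO libraries. The genes were picked by small p, by a rule that required no overlap or after their values were seen.

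Hox genes, which encode homeodomain factors that set stem cell identity in blood, moved with the stem cell list. Of 26 Hox genes and cofactors listed, 21 were tested, 12 fell and none rose, and the median log2 change was -2.25. With 1 COMBO library left out, between 11 and 12 fell. Hoxb3 had 2.24, 1.32 and 2.13 CPM in COMBO and 22.2, 11.04, 20.4 and 12.7 CPM in vehicle (-3.12 ± 0.38 (SE), adjusted p = 3.33e-07). Hoxa7 fell to 5.898, 9.04 and 15.3 CPM in COMBO against 49.6, 44.1, 43.1 and 40.6 CPM in vehicle (-2.14 ± 0.28 (SE), adjusted p = 1.12e-06). Hoxa4 was close to 0, with 0.221, 0 and 0.251 CPM in COMBO against 5.39, 6.78, 5.21 and 6.82 CPM in vehicle (-5.14 ± 0.77 (SE), adjusted p = 1.07e-05). The cofactor Meis1 fell less, to 327, 391 and 319.6 CPM in COMBO against 707, 703, 660.0 and 598 CPM in vehicle (-0.95 ± 0.12 (SE), adjusted p = 1.27e-06). All 3 COMBO libraries were below all 4 vehicle libraries for each of these genes. They are the members of the list with the smallest p, a choice that favours such a separation.

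The 12 falls that ranked first by adjusted p among genes with a mean of at least 4 CPM and no overlap were Hlf, Cadps2, Zfp608, Appl2, Zfp532, Ltbp3, Esam, Tmem176b, Trim47, Pear1, Scarf1 and Col16a1. In all, 1497 falls and 905 rises met this rule, which also asked for a call and a protein-coding gene. Cadps2, a regulator of vesicle exocytosis, had 3.12, 4.72 and 2.42 CPM in COMBO against 68.8, 66.7, 62.1 and 63.2 CPM in vehicle (-4.27 ± 0.31 (SE), adjusted p = 5.8e-11). Appl2, an endosomal adaptor protein gene, had 3.03, 0.921 and 4.298 CPM in COMBO and 104, 109, 96.98 and 90.6 CPM in vehicle (-5.14 ± 0.41 (SE), adjusted p = 1.74e-10). The zinc finger genes Zfp608 and Zfp532 changed by -3.12 and -4.26 on the log2 scale, Zfp532 by -4.91 without COMBO library 4. Pear1, a receptor on platelets and endothelium, and the collagen gene Col16a1 changed by -2.26 and -4.12. Tmem176b, a membrane protein gene, Trim47, a ubiquitin ligase gene, and Scarf1, a scavenger receptor gene, changed by -2.20, -3.45 and -3.09.

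Genes of multipotent and lymphoid progenitors had calls in both directions: of 20 listed, 19 were tested, 6 rose and 3 fell. Without COMBO library 3, 4 rose and 5 fell, and with 1 vehicle library left out between 2 and 4 rose and 3 fell. The falls were Cd34, Flt3 and Cd27. Cd34, a sialomucin that rises as stem cells become progenitors, had 21.6, 16.4 and 26.1 CPM in COMBO against 145, 242, 141 and 129 CPM in vehicle (-2.94 ± 0.45 (SE), adjusted p = 3.44e-05). Flt3, the FLT3 ligand receptor of multipotent and lymphoid progenitors, had 4.16, 0.921 and 1.95 CPM in COMBO and 23.2, 49.4, 20.8 and 13.2 CPM in vehicle (-3.48 ± 0.62 (SE), adjusted p = 0.000166). Without COMBO library 2 the Flt3 change was -4.14 (adjusted p = 0.00027). Cd27 fell to 14.8, 10.3 and 15.3 CPM in COMBO against 60.6, 62.4, 55.1 and 62.8 CPM in vehicle (-2.15 ± 0.28 (SE), adjusted p = 9.52e-07). Plac8, a cysteine-rich protein gene of progenitor cells that is induced by interferon, led the rises with 267, 167 and 205 CPM in COMBO and 30.8, 24.5, 21.6 and 12.2 CPM in vehicle (3.26 ± 0.32 (SE), adjusted p = 2.48e-08).

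Interferon-stimulated genes were higher in COMBO as a group. Of 50 listed, all tested, 37 rose, 1 fell (Ifitm1, above) and 12 did not pass, with a median log2 change of 1.17; between 36 and 37 rose when any 1 COMBO library was left out. Irf7 (chr7:141262706-141266481, minus strand), the transcription factor that amplifies interferon production, had 165, 224 and 115 CPM in COMBO against 16.8, 9.85, 12.1 and 11.01 CPM in vehicle (3.75 ± 0.33 (SE), adjusted p = 3.45e-09). Oas2, which makes antiviral oligoadenylates, had 206, 170.3 and 152 CPM in COMBO and 26.7, 25.9, 22.2 and 27.2 CPM in vehicle (2.79 ± 0.23 (SE), adjusted p = 5.57e-10). Usp18, a protease that removes ISG15 and dampens interferon receptor signalling, had 89.2, 63.99 and 59.98 CPM in COMBO and 11.9, 6.69, 8.46 and 7.87 CPM in vehicle (3.03 ± 0.27 (SE), adjusted p = 1.62e-09). Each of these genes was several times higher in every COMBO library than in any vehicle library. All are among the first 12 rises, whose rule required that the groups not overlap.

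Isg15 (chr4:156199424-156200818, minus strand), a ubiquitin-like protein gene, had 34.8, 89.9 and 43.1 CPM in COMBO against 3.22, 2.57, 2.81 and 2.04 CPM in vehicle (4.39 ± 0.42 (SE), adjusted p = 4.4e-09). Bst2, which encodes the tetherin that holds budding virus at the membrane, had 17.8, 19.8 and 11.7 CPM in COMBO and 5.47, 6.01, 8.04 and 7.47 CPM in vehicle (1.28 ± 0.33 (SE), adjusted p = 0.00645). The letters of the ISRE core, GAAA, any 2 bases and again GAAA on either strand, were looked for in the 250 bases before the start site of each gene in RefSeq's GRCm38.p6 table. They were found in 17 of the 39 interferon-stimulated genes with a promoter in the table (43.6%), against 936 of all 27025 genes (3.46%). Among the 11793 tested genes with a promoter, 391 held it (3.32%), as did 52 of 893 called higher (5.82%) and 51 of 1529 called lower (3.34%). The promoters of Isg15 and Bst2 are shown because they hold this core among the interferon-stimulated genes named here. Both run 5′ to 3′ on the gene's strand, which is the minus strand at chr4:156200819-156201068 and chr8:71537473-71537722, and capitals mark the matches, of which 3 overlap in Isg15 and 2 in Bst2.
Isg15: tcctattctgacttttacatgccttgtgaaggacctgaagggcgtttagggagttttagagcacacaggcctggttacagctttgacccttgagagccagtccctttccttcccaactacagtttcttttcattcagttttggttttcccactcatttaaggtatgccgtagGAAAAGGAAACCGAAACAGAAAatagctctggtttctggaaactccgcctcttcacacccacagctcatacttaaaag
Bst2: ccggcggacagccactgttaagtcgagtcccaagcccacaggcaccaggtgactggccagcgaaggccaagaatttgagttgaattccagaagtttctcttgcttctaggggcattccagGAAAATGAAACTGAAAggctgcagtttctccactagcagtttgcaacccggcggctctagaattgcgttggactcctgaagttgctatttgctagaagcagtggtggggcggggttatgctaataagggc
The last match ends 56 bases before the start site in Isg15 and 114 bases before it in Bst2. A match is a string of letters and not a measured binding site.

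Rnf213, a large interferon-induced ubiquitin ligase, had 2666, 2844 and 2216 CPM in COMBO against 836, 789, 774 and 734 CPM in vehicle (1.72 ± 0.13 (SE), adjusted p = 1.06e-10). Rtp4, Oasl1 and the interferon-inducible GTPase gene Irgm1 rose by 2.41, 3.24 and 1.59 on the log2 scale. The remaining names among the first 12 rises were Blm, Tent5a and Itgal. Blm, a DNA helicase of homologous recombination, had 133, 183 and 134 CPM in COMBO against 44.5, 36.9, 39.3 and 47.8 CPM in vehicle (1.83 ± 0.17 (SE), adjusted p = 4.4e-09). Tent5a, a poly(A) polymerase gene, had 135, 140.1 and 163 CPM in COMBO and 3.25, 5.21, 5.800 and 7.56 CPM in vehicle (4.74 ± 0.39 (SE), adjusted p = 5.57e-10). Itgal, the integrin alpha chain of LFA-1 on leukocytes, had 63.7, 106 and 40.9 CPM in COMBO and 4.71, 2.101, 3.98 and 4.505 CPM in vehicle (4.20 ± 0.44 (SE), adjusted p = 3.24e-08). The rule that named these genes required that the groups not overlap.

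Interferon receptor and signalling genes did not move one way: of 18 tested, 6 rose and 3 fell. The transcription factor genes Irf1 and Irf2 fell. Irf1 had 29.3, 12.5 and 28.4 CPM in COMBO against 57.2, 48.5, 65.5 and 60.9 CPM in vehicle (-1.31 ± 0.24 (SE), adjusted p = 0.000204). Irf2, a repressor of interferon responses, had 70.7, 72.3 and 95.5 CPM in COMBO and 161, 144, 153 and 151 CPM in vehicle (-0.94 ± 0.14 (SE), adjusted p = 1.67e-05). In the Ifi200 family of DNA-sensing proteins 3 of 13 tested rose and none fell. Of these, Ifi206 had 3.91, 3.28 and 2.48 CPM in COMBO against 0.0756, 0.296, 0.0659 and 0.0842 CPM in vehicle (4.65 ± 1.11 (SE), adjusted p = 0.00401), and its log2 change was 5.41 without vehicle library 2. Ifi209 had 2.37, 13.9 and 8.03 CPM in COMBO and 0.101, 0.503, 0.0439 and 0.442 CPM in vehicle, with a log2 change of 4.88 that was 4.28 (adjusted p = 0.0383) without COMBO library 3. The third, Ifi213, had no count in any vehicle library and 0, 9.32 and 2.45 CPM in COMBO, and its call was lost without COMBO library 3 (adjusted p = 0.0588).

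Interferon-inducible GTPases, which attack the vacuoles of intracellular pathogens, fell and rose in like numbers. Of 16 tested, 3 rose (Irgm1, Tgtp2 and Gvin1) and 4 fell (Gbp8, Gbp5, Gbp4 and Gbp2), with a median log2 change of -0.31. Gvin1, Gbp4 and Gbp2 are named after their values were seen and changed by 0.67, -3.11 and -0.87. Gbp8 had 0.284, 0 and 1.47 CPM in COMBO against 23.7, 10.1, 18.3 and 16.5 CPM in vehicle (-4.78 ± 0.89 (SE), adjusted p = 0.000277), and the change was -6.60 (adjusted p = 9.48e-05) without COMBO library 4. Gbp5 had 18.3, 26.1 and 19.9 CPM in COMBO and 49.6, 43.5, 53.9 and 50.3 CPM in vehicle (-1.20 ± 0.28 (SE), adjusted p = 0.00246). Tgtp2 rose to 264, 249.7 and 222 CPM in COMBO against 166, 109.7, 142 and 127 CPM in vehicle (0.85 ± 0.19 (SE), adjusted p = 0.00178). Gbp8 and Gbp5 were lower than in any vehicle library, and Tgtp2 was higher than in any. All 3 are named for their small p, which favours such a separation.

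RNA and DNA sensors, tested in 22 genes, had 7 rises and 4 falls, and between 2 and 4 falls with 1 of the 7 libraries left out (2 without COMBO library 3 or 4 or vehicle library 1 or 2). Adar, the editor of double-stranded RNA, had 285, 281 and 279 CPM in COMBO and 144, 139, 137 and 129 CPM in vehicle (1.04 ± 0.12 (SE), adjusted p = 1.96e-07). Ifih1, which encodes the RNA sensor MDA5, had 169.9, 241 and 170.2 CPM in COMBO and 79.2, 82.9, 97.1 and 81.9 CPM in vehicle (1.18 ± 0.16 (SE), adjusted p = 2.34e-06). Zbp1, a sensor of Z-form nucleic acid, and Trim25, an activator of RIG-I, changed by 1.73 and 1.02. The falls included Tmem173 (STING, -2.77), Ikbke (-1.52) and Unc93b1 (-0.70), named after their values were seen. In antigen presentation by class I, 4 of 22 genes rose and none fell. These were the peptide transporter Tap1 (0.79), the class I genes H2-Q7 (0.78) and H2-T23 (0.63), and Nlrc5, their transcriptional activator (0.49), whose call was lost without COMBO library 3 (adjusted p = 0.16). Class II genes had 1 rise and 1 fall among 10 tested (0 to 3 falls with 1 library left out).

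Interferon-stimulated genes were above vehicle in all 3 treated VFDM groups. They summed to 5565, 6888 and 4626 CPM in COMBO libraries 2, 3 and 4, to 6339.8 to 7447 CPM in IFN, to 5813 to 6549.8 CPM in AZA and to 2663 to 2877 CPM in vehicle. Interferon alone raised 44 of the 50 genes against vehicle, or 41 without the library labelled VFDM IFN 3, and azacytidine alone raised 41. These counts and that of COMBO share the 4 vehicle libraries. Whether the treatment labels of the AZA libraries, with interferon-stimulated gene sums this close to those of IFN, match the mice they came from was not tested, and each value of AZA here rests on the labels. Irf7, for example, was at 168 to 198 CPM in IFN and 115 to 159 CPM in AZA. In COMBO against IFN, 1 of the 50 rose and 10 fell, and in COMBO against AZA 2 rose and 6 fell. Ly6a differed, with 11.6 to 18.01 CPM in COMBO, against 47.7 to 63.00 CPM in IFN and 38.1 to 53.7 CPM in AZA, with no overlap (log2 change of COMBO against IFN -1.82 ± 0.30 (SE), adjusted p = 8.64e-05; against AZA -1.65 ± 0.29 (SE), adjusted p = 0.000305). The interferon-inducible GTPases had 9 of 16 lower in COMBO than in IFN and 8 lower than in AZA, with none higher in either.

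**Figure D3:**
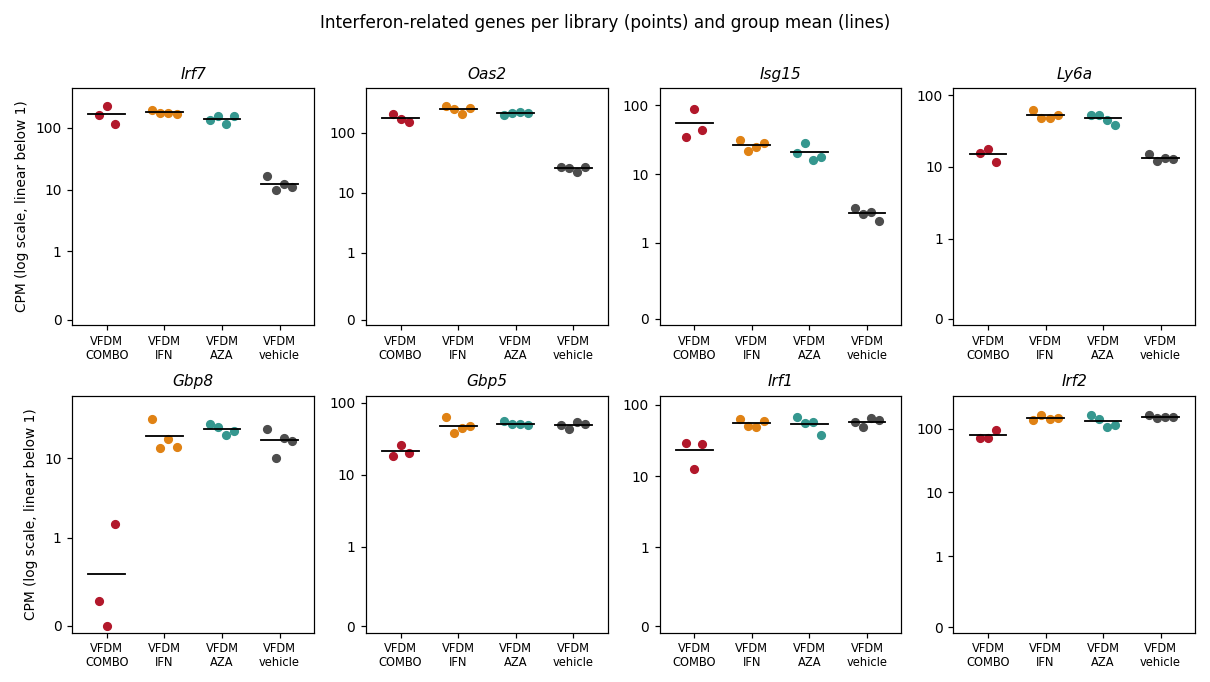
CPM of 8 interferon-related genes in each library of VFDM COMBO (red), VFDM IFN (orange), VFDM AZA (green) and VFDM vehicle (grey), on a log scale that is linear below 1; lines are group means. Irf7, Oas2 and Isg15 are above vehicle in all 3 treated groups, while Gbp8, Gbp5, Irf1 and Irf2 are lowest in COMBO.

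Erythroid genes were higher in COMBO. Of 30 listed, 29 were tested, 25 rose, 1 fell and 3 did not pass, with a median log2 change of 5.98, and 25 still rose without each COMBO library in turn. Gata1 (chrX:7959260-7978071, minus strand), the master transcription factor of erythroid and megakaryocytic cells, had 108, 89.7 and 69.7 CPM in COMBO against 8.34, 7.63, 6.99 and 9.75 CPM in vehicle (3.45 ± 0.37 (SE), adjusted p = 3.77e-08). Klf1, the erythroid Krüppel-like factor, had 93.5, 65.9 and 80.2 CPM in COMBO and 1.89, 1.63, 1.74 and 4.76 CPM in vehicle (4.99 ± 0.996 (SE), adjusted p = 0.000867). Car1, a carbonic anhydrase of early erythroid progenitors, had 270.1, 248 and 195 CPM in COMBO against 2.12, 0, 0.571 and 0.821 CPM in vehicle (8.06 ± 1.40 (SE), adjusted p = 0.000234), and its log2 change was 8.97 without vehicle library 1. All COMBO libraries were well above all vehicle libraries for these genes, and library 3 was not the highest for any of them. Gata1 is named for its small p, which favours such a separation.

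The transferrin receptor gene Tfrc had 197, 199 and 265 CPM in COMBO and 36.9, 44.8, 43.3 and 42.4 CPM in vehicle (2.40 ± 0.30 (SE), adjusted p = 7.66e-07). Sptb, a spectrin of the red cell skeleton, had 74.02, 167 and 91.6 CPM in COMBO against 2.897, 1.598, 1.27 and 3.600 CPM in vehicle (5.56 ± 0.63 (SE), adjusted p = 2.73e-07) and was highest in COMBO library 3. Nfe2, a transcription factor of the erythroid and megakaryocytic lineages, was the one member that fell, with 184, 159 and 164 CPM in COMBO and 231, 234, 244 and 266 CPM in vehicle (-0.53 ± 0.13 (SE), adjusted p = 0.00311). Nfe2 was named after its values were seen. Summed over the list, erythroid genes stood at 4009, 21929 and 5896 CPM in COMBO libraries 2, 3 and 4 and at 1092 to 1170.0 CPM in vehicle, so the sum was highest in library 3 and above vehicle in all 3. Erythroid genes thus moved with the fall of the stem cell genes, and the part of admixed erythroid cells in that fall was not tested.

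The letters AGATAA, a form of the motif that GATA factors bind, stood in the 250 bases before the start of 6 of 21 erythroid genes with a promoter in the table (28.6%). Of all 27025 genes, 3090 held them (11.4%), and of the 11793 tested genes with a promoter 925 did (7.84%). Among the tested genes, 87 of 893 called higher (9.74%) and 116 of 1529 called lower (7.59%) held them. The pair below was picked after the values were seen, as the erythroid genes that rose with the smallest p among those that hold the motif, which is in capitals. Kel encodes the Kell blood group protein and lies at chr6:41704326-41704575 on the minus strand for this window, and Rhd, which encodes the Rh blood group antigen, at chr4:134864286-134864535 on the plus strand.
Kel: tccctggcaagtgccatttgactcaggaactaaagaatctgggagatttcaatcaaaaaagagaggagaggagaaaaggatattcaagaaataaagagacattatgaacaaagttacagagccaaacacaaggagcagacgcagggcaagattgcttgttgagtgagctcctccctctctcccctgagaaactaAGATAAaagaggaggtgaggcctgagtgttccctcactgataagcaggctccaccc
Rhd: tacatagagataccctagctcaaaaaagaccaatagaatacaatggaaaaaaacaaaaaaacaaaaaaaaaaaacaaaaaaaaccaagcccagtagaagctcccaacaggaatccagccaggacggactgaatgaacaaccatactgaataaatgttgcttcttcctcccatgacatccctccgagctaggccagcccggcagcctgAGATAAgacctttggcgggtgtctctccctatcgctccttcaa
Kel had 60.8, 40.00 and 55.7 CPM in COMBO against 0.932, 0, 0.0879 and 0.421 CPM in vehicle (7.16 ± 1.44 (SE), adjusted p = 0.000926), and its log2 change was 8.22 without vehicle library 1. Rhd had 7.32, 21.01 and 3.92 CPM in COMBO against 0.403, 0.0296, 0.0439 and 0.189 CPM in vehicle (5.98 ± 1.31 (SE), adjusted p = 0.00136), and its log2 change was 5.07 without COMBO library 3 and 6.91 without vehicle library 1. Both genes were near 0 in vehicle and present in all COMBO libraries.

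Haem synthesis genes rose in part: 8 of 14 tested rose and none fell, with a median log2 change of 1.23. Alas2 (chrX:150547375-150570638, plus strand), the rate-limiting enzyme of haem synthesis in erythroid cells, had 50.8, 1279 and 198 CPM in COMBO against 2.62, 0.503, 0.2197 and 0.4000 CPM in vehicle (9.10 ± 1.63 (SE), adjusted p = 0.000315), and its log2 change was 7.08 (adjusted p = 0.00983) without COMBO library 3, 9.68 without COMBO library 2 and 10.48 without vehicle library 1. Fech, ferrochelatase, had 81.9, 376 and 141 CPM in COMBO and 46.9, 55.3, 51.2 and 48.96 CPM in vehicle (1.98 ± 0.27 (SE), adjusted p = 2.46e-06), and the change was 1.17 without COMBO library 3. The mitochondrial iron importer gene Slc25a37 had 74.2, 377 and 94.4 CPM in COMBO and 56.2, 52.6, 51.9 and 52.2 CPM in vehicle (1.77 ± 0.31 (SE), adjusted p = 8.68e-05), and the change was 0.69 without COMBO library 3. Cpox, coproporphyrinogen oxidase, was not led by that library, with 108, 84.5 and 128 CPM in COMBO against 32.04, 35.5, 39.3 and 44.9 CPM in vehicle (1.49 ± 0.26 (SE), adjusted p = 8.13e-05). Without library 3 the list had 7 rises.

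Megakaryocyte and platelet genes split evenly, with 6 rises and 6 falls among 26 tested. Mmrn1, multimerin 1 of platelet granules, fell to 42.8, 21.1 and 21.1 CPM in COMBO against 353, 255, 306 and 219 CPM in vehicle (-3.32 ± 0.35 (SE), adjusted p = 9.91e-08). Nbeal2, needed to form platelet alpha granules, had 106, 97.2 and 95.9 CPM in COMBO and 278, 280.1, 274 and 276 CPM in vehicle (-1.47 ± 0.20 (SE), adjusted p = 1.66e-06). Serpine2, a protease inhibitor of platelets, rose to 4.605, 9.67 and 8.502 CPM in COMBO against 0.857, 1.15, 2.35 and 1.68 CPM in vehicle (2.32 ± 0.45 (SE), adjusted p = 0.000399). The falls numbered 5, 6 and 5 without COMBO libraries 2, 3 and 4, and the rises 4, 3 and 2. Without any 1 vehicle library the rises numbered 2 or 3.

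Granule genes of neutrophils were higher in COMBO and highest in library 3. Of 23 listed, 22 were tested, 12 rose and 2 fell, and the list summed to 937, 2099.9 and 779 CPM in COMBO libraries 2, 3 and 4 against 155 to 233 CPM in vehicle. Without library 3, 11 rose and 2 fell. S100a8, a subunit of the calprotectin of neutrophils, had 11.8, 278 and 50.3 CPM in COMBO against 0.0504, 0.0296, 0.352 and 0.274 CPM in vehicle (9.24 ± 1.75 (SE), adjusted p = 0.000552), with a log2 change of 7.43 without COMBO library 3 and 9.83 without vehicle library 3. Its partner S100a9 had 23.8, 490.0 and 98.9 CPM in COMBO and 0.176, 0.917, 0.0439 and 0.863 CPM in vehicle (8.68 ± 1.61 (SE), adjusted p = 0.000453), with 6.97 without COMBO library 3. Ngp, neutrophilic granule protein, had 16.7, 386 and 108 CPM in COMBO and 0.202, 0.148, 0.154 and 0.526 CPM in vehicle (9.32 ± 1.77 (SE), adjusted p = 0.000596), with 7.91 without COMBO library 3 and 10.02 without vehicle library 4. Mmp8, neutrophil collagenase, had 4.07, 60.8 and 14.7 CPM in COMBO and 0, 0, 0 and 0.0842 CPM in vehicle (9.97 ± 1.75 (SE), adjusted p = 0.000132), with 8.53 without COMBO library 3 and 12.89 without vehicle library 4. All 4 are genes of maturing granulocytes, and their order over the COMBO libraries was the same, with library 3 highest and library 2 lowest.

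The 2 falls of the neutrophil list were named after their values were seen. They were Csf3r, the G-CSF receptor, and Gfi1, a repressor that stem cells also need. Csf3r had 10.6, 52.7 and 14.3 CPM in COMBO and 91.2, 105, 89.4 and 76.6 CPM in vehicle (-1.82 ± 0.40 (SE), adjusted p = 0.00167), and its change was -2.83 without COMBO library 3. Gfi1 had 4.23, 0 and 1.69 CPM in COMBO and 27.5, 19.9, 10.7 and 10.5 CPM in vehicle (-3.09 ± 0.71 (SE), adjusted p = 0.00241), and its change was -4.21 (adjusted p = 0.000774) without COMBO library 2.

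Monocyte and macrophage genes, which mark another blood lineage, had 3 rises and no fall among 21 tested (1 to 3 rises with 1 of the 7 libraries left out), led by Cd14, the lipopolysaccharide co-receptor, with 1.61, 9.496 and 4.58 CPM in COMBO and 0.0252, 0.0592, 0.1098 and 0.0842 CPM in vehicle (6.15 ± 1.45 (SE), adjusted p = 0.00375; 5.43 without COMBO library 3). Csf1r, the macrophage growth factor receptor, had 6.62, 4.89 and 3.55 CPM in COMBO and 0.176, 0.237, 0.703 and 0.779 CPM in vehicle and missed the threshold (3.39 ± 1.27 (SE), adjusted p = 0.065). B cell genes had 5 rises and 1 fall among 12 tested, but 2 rises and no fall without COMBO library 3 and 3 or 4 rises without COMBO library 4 or any 1 vehicle library. The early B cell factor gene Ebf1 had no count in any vehicle library and 0.221, 10.8 and 1.57 CPM in COMBO, at least 168-fold higher with vehicle set to 3 counts over the group (49.8-fold without COMBO library 3 and 268-fold without COMBO library 2), and its fitted change was called with and without COMBO library 3 (adjusted p = 0.00394 and 0.0235). Igkc, the kappa light chain, had no count in vehicle and 2.74, 37.8 and 5.24 CPM in COMBO, at least 624-fold higher by the same limit and at least 222-fold without COMBO library 3, and its call was lost without library 3 (adjusted p = 0.0787). Ighm, the mu heavy chain, had 6.81, 14.6 and 12.9 CPM in COMBO against 0.126, 0.0888, 0.242 and 0.211 CPM in vehicle (6.06 ± 1.31 (SE), adjusted p = 0.00116). Vpreb1, the surrogate light chain, was the member that fell, with no count in COMBO and 0.151, 1.07, 0.461 and 0.547 CPM in vehicle, and leaving out any 1 COMBO library or vehicle library 2, 3 or 4 ended its call.

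T and NK cell genes had 3 rises and no fall among 14 tested, 1 rise without COMBO library 3 and 1 or 2 without any 1 vehicle library. Nkg7, a granule protein gene of cytotoxic cells, was even across libraries, with 22.05, 22.2 and 21.7 CPM in COMBO and 2.07, 4.76, 2.79 and 2.21 CPM in vehicle (2.90 ± 0.42 (SE), adjusted p = 6.52e-06). Trbc2, a T cell receptor constant region, had 0, 6.56 and 2.698 CPM in COMBO and 0, 0.0296, 0 and 0 CPM in vehicle, and its call (adjusted p = 0.0258) was lost without COMBO library 3 (adjusted p = 0.0724) and without vehicle library 1, 3 or 4 (adjusted p between 0.0659 and 0.0701). Mast cell and basophil genes had 2 rises among 9 tested, with 1 without COMBO library 3 and none without vehicle library 2 or 3. Cpa3, the mast cell carboxypeptidase, missed the threshold with 17.8, 18.1 and 4.83 CPM in COMBO and 1.36, 1.01, 1.03 and 0.716 CPM in vehicle (adjusted p = 0.0533). Dendritic cell genes had 5 rises and 2 falls among 10 tested, with 2 of each without library 3 and 1 or 2 rises without COMBO library 4 or any 1 vehicle library, and endothelial and stromal genes 2 of each among 14, with 1 rise when any 1 of the 7 libraries was left out. In the last list Vim, the intermediate filament vimentin, rose to 495, 565 and 374 CPM in COMBO against 201, 243, 217 and 241 CPM in vehicle (1.09 ± 0.18 (SE), adjusted p = 3.34e-05). Monocyte and macrophage genes summed to 135, 361 and 178 CPM in COMBO libraries 2, 3 and 4 and to 115 to 133 CPM in vehicle. B cell genes summed to 12.9, 108 and 25.4 CPM in COMBO and 5.24 to 7.56 CPM in vehicle, and T and NK cell genes to 25.3, 68.6 and 39.03 CPM in COMBO and 9.75 to 13.3 CPM in vehicle. All 3 sums were highest in COMBO library 3, as the globin share was. The part of these cell types in the results above was not tested. Without COMBO library 3 the stem cell list had 32 falls and a median log2 change of -1.59.

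**Figure D4:**
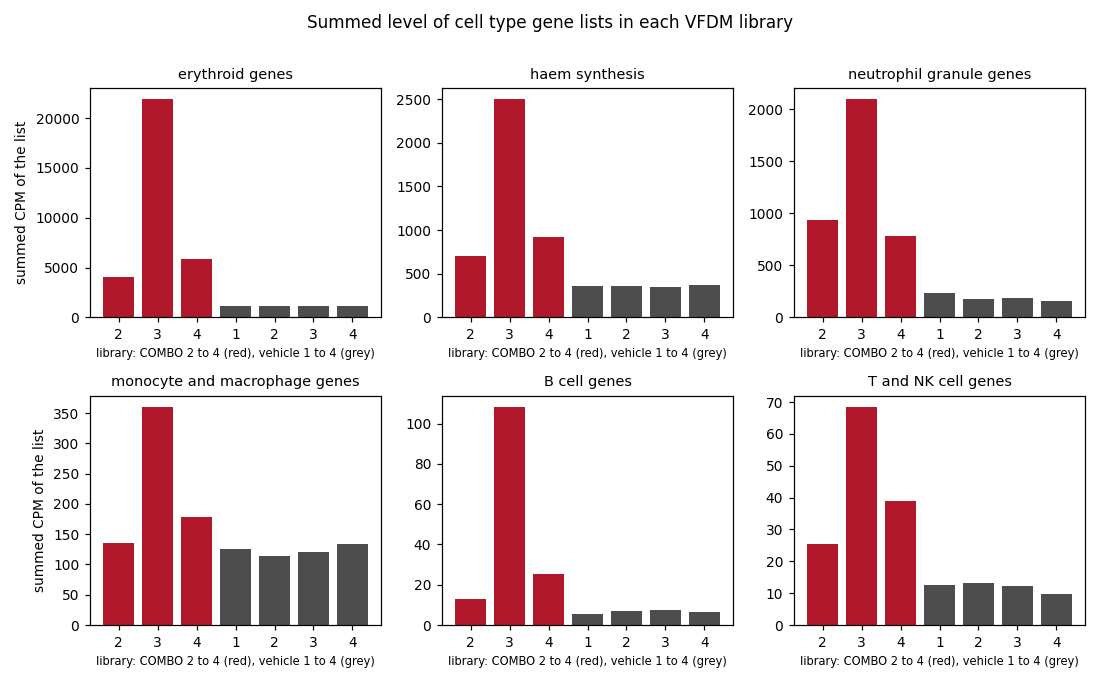
Summed CPM of 6 cell type gene lists in each library of VFDM COMBO (red, libraries 2 to 4) and VFDM vehicle (grey, libraries 1 to 4); bars start at 0 and each panel has its own scale. COMBO library 3 has the tallest bar in every panel. The sums exceed vehicle in all 3 COMBO libraries in every panel, narrowly so for monocyte and macrophage genes in COMBO library 2.

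Some target genes of STAT5, the factor that JAK2-V617F activates, were lower. Of 22 listed, 21 were tested, 7 fell and none rose, with a median log2 change of -0.50 that was -0.09 without COMBO library 2. There was 1 rise without COMBO library 2 or 4 or vehicle library 1 or 2. The kinase gene Pim1 had 64.7, 74.5 and 66.1 CPM in COMBO and 241, 206, 219 and 215 CPM in vehicle (-1.69 ± 0.20 (SE), adjusted p = 3.11e-07). The feedback inhibitors Cish and Socs2 fell too: Cish had 11.7, 10.8 and 5.804 CPM in COMBO against 57.1, 70.9, 46.1 and 42.2 CPM in vehicle (-2.52 ± 0.34 (SE), adjusted p = 1.97e-06), and Socs2 had 9.87, 8.69 and 1.91 CPM in COMBO against 146, 149, 109 and 115 CPM in vehicle (-4.26 ± 0.79 (SE), adjusted p = 0.000482). Pim2 had 2.62, 2.88 and 0 CPM in COMBO and 24.2, 18.2, 19.4 and 16.97 CPM in vehicle (-3.45 ± 0.69 (SE), adjusted p = 0.000597), with a log2 change of -2.79 (adjusted p = 0.000461) without COMBO library 4. All COMBO libraries lay below all vehicle libraries for the 4 genes. They are named as the members with the smallest p, a choice that favours such a separation. The endogenous kinase gene Jak2 went the other way, with 205, 188 and 167 CPM in COMBO and 137, 131, 131 and 140.0 CPM in vehicle (0.47 ± 0.12 (SE), adjusted p = 0.00806). Reads of the human transgene are counted in rows of their own, and how far they could also count to mouse Jak2 was not tested.

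Part of the cell cycle genes was higher. Of 30 genes of DNA replication and S phase, 11 rose and none fell, and the count was 12, 11 and 9 without COMBO libraries 2, 3 and 4, 17 with only these 2 groups in the fit and 21 with only the VFDM libraries. Mcm7, a subunit of the replicative helicase, had 255, 286 and 297 CPM in COMBO and 159, 171, 167 and 189 CPM in vehicle (0.70 ± 0.14 (SE), adjusted p = 0.000423). Mcm10, which helps to start replication, had 84.8, 80.6 and 107 CPM in COMBO and 29.05, 33.2, 31.99 and 45.05 CPM in vehicle (1.39 ± 0.25 (SE), adjusted p = 0.000173). Ccne1, cyclin E1, had 22.2, 25.03 and 21.4 CPM in COMBO and 6.05, 5.62, 4.57 and 7.33 CPM in vehicle (1.96 ± 0.39 (SE), adjusted p = 0.000425). E2f2, a transcription factor of S phase that late erythroid cells also express, had 17.9, 80.3 and 30.7 CPM in COMBO and 7.26, 6.98, 7.21 and 10.02 CPM in vehicle (2.45 ± 0.43 (SE), adjusted p = 9.05e-05), and its change was 1.66 without COMBO library 3. The groups did not overlap for these genes, which were picked as the members with the smallest p, a choice that favours such a separation.

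Of 28 genes of G2 and mitosis, 6 rose and none fell, but only 3 rose without COMBO library 3 or library 4, and 10 without vehicle library 4. With only these 2 groups in the fit 13 rose, with only the VFDM libraries 16 and with protein-coding rows alone 10. Cenpa, the centromeric histone, had 103, 82.4 and 80.1 CPM in COMBO and 31.1, 39.5, 30.96 and 40.96 CPM in vehicle (1.31 ± 0.23 (SE), adjusted p = 0.000112). Mki67, the proliferation antigen Ki-67, had 1363, 1878 and 1984 CPM in COMBO and 714, 888, 846 and 1159 CPM in vehicle (0.95 ± 0.23 (SE), adjusted p = 0.00378). Ccnb2, cyclin B2, rose by 0.99 and lost its call without COMBO library 3 (adjusted p = 0.0771). Tpx2, a spindle assembly factor, rose by 0.76 and lost its call without COMBO library 3 (adjusted p = 0.055) or library 4 (0.74 (adjusted p = 0.0593)). Among 18 quiescence genes and inhibitors of cyclin-dependent kinases, 2 rose and 4 fell (1 to 3 rises and 2 to 4 falls with 1 library left out). Cdkn1c, the inhibitor p57 that holds stem cells in quiescence, had 0.252, 2.42 and 1.35 CPM in COMBO and 14.9, 12.5, 15.5 and 10.5 CPM in vehicle (-3.34 ± 0.78 (SE), adjusted p = 0.00254), with -4.02 without COMBO library 3. Hes1, a Notch target, had no count in COMBO and 0.957, 0.799, 1.76 and 0.695 CPM in vehicle, at least 28.8-fold lower with COMBO set to 3 counts over the group, and at least 17.5-fold without COMBO library 2 or 4 (adjusted p = 0.0075). The tumour suppressor gene Rb1 rose, with 62.7, 83.3 and 77.3 CPM in COMBO and 40.01, 38.5, 42.3 and 44.6 CPM in vehicle (0.85 ± 0.21 (SE), adjusted p = 0.00505).

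Ribosome biogenesis genes rose in 11 of 25 cases and fell in none, with 8, 13 and 6 rises without COMBO libraries 2, 3 and 4 and 7 without vehicle library 1, and 17 to 21 rises with limma voom, with only the VFDM libraries, with only these 2 groups, with protein-coding rows alone or without VF vehicle libraries 1 and 4. The nucleolar helicase gene Ddx21 had 464, 416 and 558 CPM in COMBO and 232, 249.8, 253 and 281 CPM in vehicle (0.92 ± 0.16 (SE), adjusted p = 0.000123). Nop2, an rRNA methyltransferase, had 125, 112 and 97.1 CPM in COMBO and 62.2, 52.2, 56.4 and 59.8 CPM in vehicle (0.95 ± 0.19 (SE), adjusted p = 0.000557). The nucleolar phosphoprotein gene Nolc1 and Polr1a, the large subunit of RNA polymerase I, rose by 0.99 and 0.49. The 55 cytosolic ribosomal protein genes, by contrast, had 1 fall (Rps24, -0.54, named for the smallest p of the list) and no rise, and none of the 13 mitochondrially encoded genes passed. Nuclear subunits of oxidative phosphorylation had 2 rises among 32, and 6 without COMBO library 3.

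Targets of p53 had 6 rises and 3 falls among 24 tested, with 1 rise and 2 falls without COMBO library 4 and 4 or 5 rises and 1 or 2 falls with any 1 of the other 6 libraries left out. Pmaip1, the pro-apoptotic NOXA, had 0, 2.99 and 7.97 CPM in COMBO and 0, 0, 0.0659 and 0.0211 CPM in vehicle (7.11 ± 2.05 (SE), adjusted p = 0.015; 7.74 without COMBO library 2 and 8.36 without vehicle library 3), overlapped between the groups, and was not called without COMBO library 4 (5.87 (adjusted p = 0.0607)). Ccng1, cyclin G1, and Aen, an apoptosis-enhancing nuclease, rose by 0.67 and 0.76, and both calls were lost without library 4 (0.35 (adjusted p = 0.275) and 0.75 (adjusted p = 0.0613)). The kinase gene Plk2 had no count in COMBO and 5.04, 1.09, 5.32 and 2.25 CPM in vehicle, at least 94.97-fold lower by the limit of 3 counts over the group, and at least 57.6-fold without COMBO library 4 and 57.8-fold without COMBO library 2 (adjusted p = 0.00218). Genes of the BCL2 family had 1 rise and 1 fall among 15, and genes of death receptors, necroptosis and pyroptosis 2 rises and 1 fall among 18 (0 to 3 falls with 1 library left out).

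The DNA methylation machinery had 2 rises and 4 falls among 15 tested. Besides Dnmt3a, the second de novo methyltransferase gene Dnmt3b fell, with 64.2, 38.04 and 38.9 CPM in COMBO and 98.6, 133, 109 and 107 CPM in vehicle (-1.25 ± 0.26 (SE), adjusted p = 0.000731). Dnmt1, the maintenance methyltransferase that azacytidine traps as protein, had 590.2, 699 and 734 CPM in COMBO and 442, 516, 492 and 604 CPM in vehicle and did not pass (0.39 ± 0.18 (SE), adjusted p = 0.142). Tet1, which oxidises methylated cytosine, had 48.3, 58.2 and 55.2 CPM in COMBO and 151, 137, 127 and 128 CPM in vehicle (-1.33 ± 0.21 (SE), adjusted p = 2.5e-05). Mbd2, a reader of methylated DNA, rose to 118, 141 and 119 CPM in COMBO against 65.8, 67.96, 65.4 and 62.7 CPM in vehicle (0.95 ± 0.15 (SE), adjusted p = 3.13e-05). The fourth fall and second rise, Zbtb38 (-0.75) and Tet3 (0.67), are named after their values were seen. Methylation itself was not measured here.

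Genes that DNA methylation is known to silence outside the germline were mostly too low to test: 7 of 20 listed passed the filter on low counts, and none of the 7 was called. Of the 30 imprinted genes listed, 24 were tested, 4 fell and none rose. Ndn, necdin, which restrains stem cell cycling, had no count in COMBO and 1.99, 1.39, 5.34 and 1.94 CPM in vehicle, at least 74.7-fold lower by the limit of 3 counts over the group, and at least 48.6-fold without vehicle library 3, 45.5-fold without COMBO library 2 and 45.3-fold without COMBO library 4 (adjusted p = 0.00421). Sgce, epsilon sarcoglycan, had 6.34, 1.67 and 2.196 CPM in COMBO and 23.3, 19.8, 18.7 and 21.1 CPM in vehicle (-2.59 ± 0.60 (SE), adjusted p = 0.00241), with -3.37 (adjusted p = 0.00119) without COMBO library 2. Grb10, an adaptor that limits growth factor signalling, had a log2 change of -0.71, and its call was lost without COMBO library 2 (-0.57 (adjusted p = 0.102)), COMBO library 4 (-0.63 (adjusted p = 0.0785)) or vehicle library 4 (adjusted p = 0.0636). Among listed genes of nucleoside uptake and nucleotide metabolism, 4 rose and 1 fell among 17 tested, with 2 rises without COMBO library 2 and 1 without COMBO library 4. The nucleoside transporter gene Slc28a2 fell to 12.8, 14.6 and 14.8 CPM in COMBO against 39.5, 43.7, 35.8 and 33.7 CPM in vehicle (-1.44 ± 0.31 (SE), adjusted p = 0.00106). Uck2, the kinase that activates azacytidine, had 139, 139 and 136 CPM in COMBO and 105, 100.4, 98.3 and 101 CPM in vehicle (0.45 ± 0.15 (SE), adjusted p = 0.0365), and lost its call without any 1 COMBO library. Cad, of pyrimidine synthesis, and Rrm2, of ribonucleotide reductase, rose by 0.61 and 1.13; the Cad call was lost without COMBO library 2 (0.53 (adjusted p = 0.0501)) and the Rrm2 call without COMBO library 4 (0.89 (adjusted p = 0.0797)).

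Genes of cholesterol synthesis and uptake fell in 6 of 20 cases and rose in none, with 7, 3 and 4 falls without COMBO libraries 2, 3 and 4 and 4 falls without any 1 vehicle library. Srebf2, the transcription factor that controls them, had 157, 147 and 134 CPM in COMBO and 261, 248, 249.5 and 238 CPM in vehicle (-0.77 ± 0.16 (SE), adjusted p = 0.000998). Insig1, its retention factor, had 15.99, 9.21 and 8.91 CPM in COMBO and 37.5, 41.7, 40.8 and 34.4 CPM in vehicle (-1.76 ± 0.41 (SE), adjusted p = 0.0023). Sc5d, a late sterol enzyme, had a log2 change of -1.17 and lost its call without COMBO library 3 (adjusted p = 0.12). In glycolysis 2 of 17 genes rose and 5 fell, or 3 without COMBO library 2. The hexokinase genes moved apart: Hk1 rose to 507, 503 and 507 CPM in COMBO against 274, 282, 282 and 317 CPM in vehicle (0.81 ± 0.13 (SE), adjusted p = 3.89e-05), while Hk2 fell to 28.5, 56.3 and 38.4 CPM in COMBO against 74.6, 75.5, 75.6 and 86.01 CPM in vehicle (-0.93 ± 0.22 (SE), adjusted p = 0.00264), a call lost without COMBO library 2 (-0.68 (adjusted p = 0.0528)). Pkm, pyruvate kinase M, had 108, 160.0 and 172 CPM in COMBO and 368, 413, 417 and 452 CPM in vehicle (-1.49 ± 0.32 (SE), adjusted p = 0.00132). The glucose transporter gene Slc2a1 had 2.59, 2.24 and 5.804 CPM in COMBO and 27.01, 28.96, 23.4 and 24.3 CPM in vehicle (-2.86 ± 0.62 (SE), adjusted p = 0.00139).

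TGF-beta signalling genes had 3 rises and 5 falls among 21 tested, with 3 or 4 falls when any 1 of the 7 libraries was left out. Tgfbr3, the betaglycan co-receptor, rose to 291, 313 and 274 CPM in COMBO against 137, 86.9, 113 and 128 CPM in vehicle (1.33 ± 0.19 (SE), adjusted p = 5.77e-06). The ligand gene Tgfb1 had 322, 311 and 283 CPM in COMBO and 179, 155, 164 and 178 CPM in vehicle (0.85 ± 0.16 (SE), adjusted p = 0.000288). Acvr1b, an activin receptor, fell to 18.2, 14.1 and 9.85 CPM in COMBO against 55.8, 56.9, 53.1 and 41.9 CPM in vehicle (-1.89 ± 0.28 (SE), adjusted p = 7.31e-06). The remaining lists had calls in both directions. The unfolded protein and stress response had 3 rises and 1 fall among 19. Immediate early genes had 1 rise and 2 falls among 23 (0 to 2 of each with 1 library left out). NF-kB and inflammatory genes had 1 rise and 4 falls among 21. Without COMBO library 4 these became 1 rise and no fall. Without any 1 of the other 6 libraries they were 1 rise and 1 to 3 falls.

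Set against interferon alone, COMBO changed 1748 rows (7.88%), 355 higher (1.60%) and 1393 lower (6.28%). Set against azacytidine alone it changed 1733 rows (7.82%), 431 higher (1.94%) and 1302 lower (5.87%). The count against IFN was 1092 without COMBO library 3, 1123 without COMBO library 4 and 1112 without IFN library 1, and the count against AZA was 1039 without COMBO library 3 and 757 with only these 2 groups in the fit. Without the library labelled VFDM IFN 3 it was 1437 against IFN. Stem cell genes fell in 31 of 50 cases against IFN and in 33 against AZA, with none higher in either, and in 28 against each without COMBO library 3. Hlf, for instance, was at 32.8 to 40.2 CPM in COMBO, 181 to 256 CPM in IFN and 133 to 326 CPM in AZA (log2 change of COMBO against IFN -2.65 ± 0.25 (SE), adjusted p = 2.68e-08; against AZA -2.85 ± 0.26 (SE), adjusted p = 9.11e-09). Of the Hox list 12 of 21 fell against each drug and none rose. Zfp532, Cadps2 and Appl2 were among the first 5 falls against either drug, with log2 changes of -3.68, -3.67 and -4.06 against IFN and -3.95, -3.71 and -4.09 against AZA. The Zfp532 changes were -4.32 against IFN and -4.61 against AZA without COMBO library 4. Esam completed the 5 against IFN (-3.76) and Dock1, an activator of the GTPase Rac, those against AZA (-2.89). The comparisons with the single drugs share the 3 COMBO libraries.

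Erythroid genes were higher in COMBO than in IFN in 16 of 29 cases and higher than in AZA in 10, with none lower in either. These counts fell to 8 and 5 without COMBO library 3, and the count against IFN was 9 without the library labelled VFDM IFN 3. Against vehicle, azacytidine alone raised 14 erythroid genes and interferon alone 3. Gata1 was at 69.7 to 108 CPM in COMBO, 19.4 to 50.2 CPM in IFN and 22.3 to 63.7 CPM in AZA (COMBO against IFN 1.38 ± 0.35 (SE), adjusted p = 0.00986; against AZA 1.24 ± 0.35 (SE), adjusted p = 0.0225). The call against AZA was lost without COMBO library 2 or 3 (adjusted p = 0.0833 and 0.0561) or AZA library 1 or 4 (adjusted p = 0.0783 and 0.0633). Of 22 neutrophil granule genes, 12 were higher and 1 lower than in AZA, and none was higher and 1 lower than in IFN. S100a8 was at 2.47 to 61.8 CPM in IFN and 0.152 to 0.946 CPM in AZA. The rises that ranked first against both drugs included Tent5c, a poly(A) polymerase gene, and Xylt1, a xylosyltransferase. Tent5c had 44.2, 809 and 125 CPM in COMBO, against 8.19 to 10.2 CPM in IFN and 6.34 to 9.95 CPM in AZA, with library 3 highest and a log2 change against vehicle of 5.47, or 3.56 without library 3. Without that library its changes were 3.22 against IFN and 3.34 against AZA, and with only the groups compared its call against AZA was lost (adjusted p = 0.0737). Xylt1 had 122, 126 and 109 CPM in COMBO, 34.7 to 52.6 CPM in IFN and 30.7 to 51.4 CPM in AZA. S100a10, an annexin A2 partner, and Mns1, a gene of cilia and sperm tails, were higher than in IFN by 1.22 and 1.77. Slfn4, an interferon-induced Schlafen gene, had 0.8200, 64.9 and 10.3 CPM in COMBO and 0.0378 to 0.263 CPM in AZA (log2 change 7.21; 5.07 without COMBO library 3, 7.82 without COMBO library 2 and, not called, 4.31 by limma voom with adjusted p = 0.105).

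The response to the combination differed between genotypes at 830 rows (3.74%), as tested by the interaction term: the COMBO change in VFDM was above that in VF at 277 rows (1.25%) and below it at 553 (2.49%). Without VF vehicle library 4 the count was 524, without VF vehicle libraries 1 and 4 together 328, and with the 4 groups alone in the fit it was 298. Of 50 stem cell genes 18 had a more negative response in VFDM and none a more positive one, and of 21 Hox genes 7 and none. Without VF vehicle libraries 1 and 4 these were 13 stem cell and 5 Hox genes, and without VFDM COMBO library 3 they were 16 and 6, with none above in either fit. Hlf had 76.2 to 189 CPM in VF COMBO against 261 to 309 CPM in VF vehicle, and the VFDM response minus the VF response was -2.61 ± 0.32 (SE), adjusted p = 1.5e-05. For Procr, at 0.576 to 27.4 CPM in VF COMBO and 23.1 to 43.2 CPM in VF vehicle, this difference was -6.02 ± 0.97 (SE), adjusted p = 0.000366, or -8.13 without VFDM COMBO library 4 and -4.97 without VF COMBO library 1. Hoxa4 was at 3.15 to 8.26 CPM in VF COMBO and 2.39 to 5.74 CPM in VF vehicle (difference -5.95 ± 0.93 (SE), adjusted p = 0.000252). Cadps2, Appl2, Zfp608 and Arhgef6, an exchange factor for Rac, stood with Hlf as the first 5 below, with differences of -3.52, -4.02, -2.48 and -2.01.

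On the other side, 7 of 29 erythroid genes and 4 of 14 haem synthesis genes had a higher response in VFDM, and none a lower one. Without VF vehicle libraries 1 and 4 only 1 erythroid and 2 haem genes were called, and without VFDM COMBO library 3 only 1 erythroid and no haem gene. Gata1 had 14.4 to 66.6 CPM in VF COMBO and 15.4 to 26.8 CPM in VF vehicle (2.26 ± 0.48 (SE), adjusted p = 0.00482). Alas2 had 0.6302 to 9.31 CPM in VF COMBO and 0 to 5.34 CPM in VF vehicle (7.57 ± 1.94 (SE), adjusted p = 0.0284). It was 5.63 without VFDM COMBO library 3, 5.56 without VF vehicle library 1, 8.39 without VF COMBO library 3 and 8.89 without VFDM vehicle library 1. The Alas2 call was lost without VFDM COMBO library 3 (adjusted p = 0.164), VFDM vehicle library 2, 3 or 4 (0.0613, 0.0626 and 0.0592) or VF vehicle library 1 (0.15). Plac8 was at 91.2 to 204 CPM in VF COMBO and 51.3 to 110.4 CPM in VF vehicle (2.30 ± 0.42 (SE), adjusted p = 0.00148), with VF vehicle above VFDM vehicle. Tent5c, Glrx5, a glutaredoxin of iron-sulphur cluster assembly, Dynll1, a dynein light chain, and Cdt1, a replication licensing factor, made up the first 5 with Plac8, with differences of 5.15, 1.97, 1.57 and 1.43. The Tent5c difference was 3.20 without VFDM COMBO library 3, and was not called by limma voom (adjusted p = 0.112). Dynll1 rose in VFDM, with 90.9, 74.6 and 71.8 CPM in COMBO against 38.3, 44.3, 44.7 and 48.7 CPM in vehicle, while in VF it was at 32.2 to 58.3 CPM in COMBO and 58.4 to 112 CPM in vehicle. Of the 50 interferon-stimulated genes, 2 had a higher response in VFDM, Isg15 among them (2.03 ± 0.53 (SE), adjusted p = 0.0231), and 1 a lower one. The Isg15 difference was 1.19 without VF vehicle libraries 1 and 4, and its call was lost without VFDM COMBO library 3 (adjusted p = 0.126), VFDM vehicle library 4 (0.0537) or VF vehicle library 1 or 4 (0.0657 and 0.0629). COMBO raised 37 of the 50 in VFDM and 41 in VF, each against its own vehicle; in VF it changed 1838 of all rows (8.29%), 923 higher (4.16%) and 915 lower (4.13%). Without VF vehicle libraries 1 and 4, COMBO raised 38 of the 50 in VF and changed 358 rows in all, and none of the 50 was called in the test of the genotype difference.

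**Figure D5:**
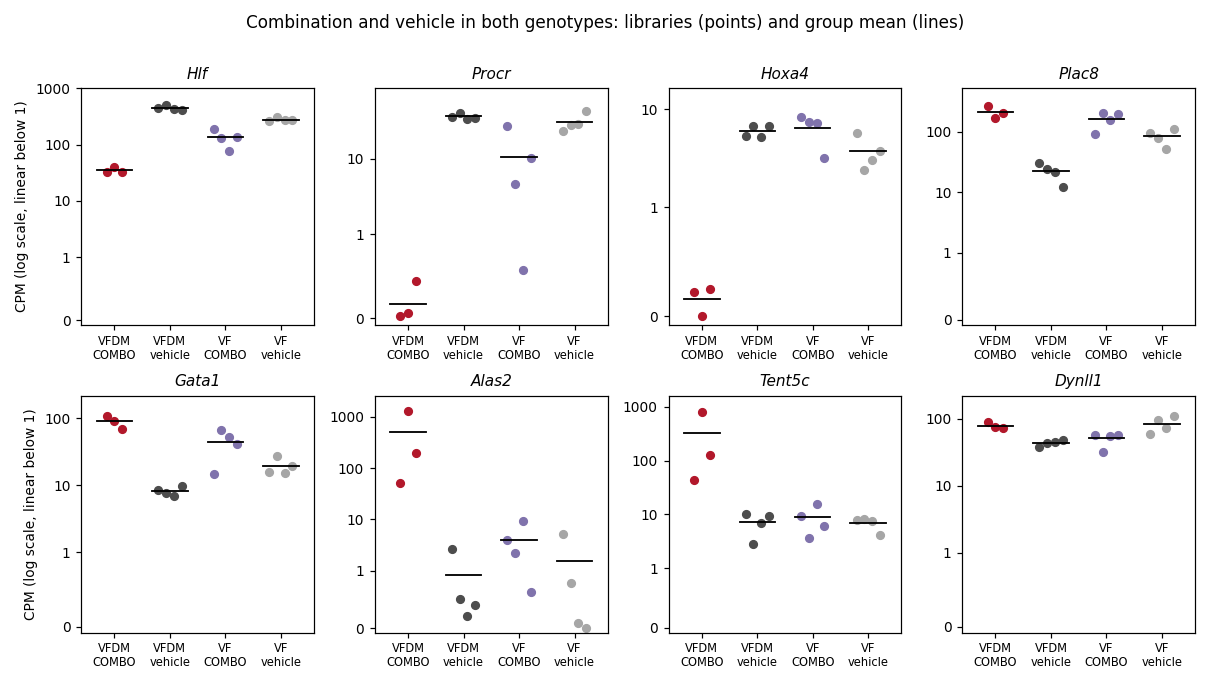
CPM of 8 genes in each library of VFDM COMBO (red), VFDM vehicle (dark grey), VF COMBO (purple) and VF vehicle (light grey), on a log scale that is linear below 1; lines are group means. Hlf, Procr and Hoxa4 are lowest in VFDM COMBO, and Alas2 and Tent5c are highest there.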

How the data were processed

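RNA was extracted with the PicoPure kit from sorted cells and made into libraries with the Takara SMART-Seq Stranded kit, per the labels' protocols. The table holds whole-number counts per gene as deposited by the authors; FastQC 0.11.5, STAR 2.7.10a, featureCounts, R 4.3.0 and the build mm10 come from the submitters' processing notes, and no source read here states the strand setting of the counting. All 31 libraries, with 1 mean per group, were fitted with edgeR 4.0.16 in R 4.3.3: filterByExpr kept 22172 of 55492 rows, scaling was TMM, and the quasi-likelihood test was two-sided with Benjamini-Hochberg adjustment over these rows at 0.05. Changes are COMBO over the group it is set against, and list medians are over tested members. SE is the size of the log2 change divided by the square root of the test's F value. It is thus approximate and not returned by the fit itself. The fit was checked on simulated counts with 100 genes changed by 1 and 100 by 2 on the log2 scale, among 21733 tested. The changed genes had a mean of at least 4 CPM, and all other genes had the same mean in every group. The fit recovered 40% and 72% of the changed genes, and 7.44% of its calls were false, against the threshold of 0.05. A gene that did not pass can thus have changed. In the real data 3551 rows were called in COMBO against vehicle, so these rates need not hold there. Of 933 entries in 41 gene lists, 875 were tested, 54 were under the filter and 4 were not found. Members and lists were chosen with earlier results of these data known. Named genes are the first 12 rises and falls by adjusted p with a mean of at least 4 CPM and no overlap between groups (5 each in the other comparisons), up to 4 members of each list by p, the sort markers, transgene rows and Dnmt genes; others are marked in the text. A few genes that this rule names are not reported here. Coordinates are those of GENCODE vM21 and promoters those of RefSeq. Counts of replicate pairs differed by more than sampling noise in every pair of both groups. Same-numbered COMBO and vehicle libraries did not deviate together, so the numbers were not used as pairs. Limits of 3 counts cover counting error only. Alternatives were other scaling, filters, tools (DESeq2 1.42.0, limma 3.58.1), sample sets and leaving out each library.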

Additional observations from a re-analysis of the deposited data

Results flagged for a closer look

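Among the genes named, 13 had a vehicle library whose distance to the nearest of the other 3 exceeded the 95% limit of Dixon's test, which chance gives for about 1 group in 20. Vehicle library 4 was the highest for Klf1 (4.76 CPM), Ngp (0.526 CPM), Mmp8 (0.0842 CPM), E2f2 (10.02 CPM) and Hk2 (86.01 CPM), and the lowest for Dnmt3a (109 CPM). Vehicle library 2 was the highest for Cd34 (242 CPM), Ifi206 (0.296 CPM) and Trbc2 (0.0296 CPM), and the lowest for Gfi1b (27.4 CPM). Vehicle library 1 was the highest for the haem genes Alas2 (2.62 CPM) and Slc25a37 (56.2 CPM), and vehicle library 3 for Ndn (5.34 CPM). The values of Mmp8, Trbc2 and Ifi206 rest on few counts.

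For 15 genes the response to the combination differed between genotypes by the interaction term. The log2 response in VFDM minus that in VF was -2.61 for Hlf, -6.02 for Procr, -5.95 for Hoxa4, -3.52 for Cadps2, -2.48 for Zfp608, -4.02 for Appl2 and -2.01 for Arhgef6. It was 2.26 for Gata1, 7.57 for Alas2, 1.97 for Glrx5, 5.15 for Tent5c, 2.30 for Plac8, 2.03 for Isg15, 1.57 for Dynll1 and 1.43 for Cdt1. For Alas2 and Tent5c the COMBO library with the highest globin share, library 3, was also the highest, and without it the differences were 5.63 and 3.20.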

How the results depend on the processing

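VFDM COMBO against VFDM vehicle gave between 3157 and 5168 rows under the alternatives that kept all 7 libraries and between 2531 and 3081 with 1 of the 7 left out. Rows higher in COMBO made up 34.5% of these calls in the main fit and 33.9% with DESeq2. The share was 43.7% with only the VFDM libraries and 44.2% with protein-coding rows alone. The other comparisons were less stable. DESeq2 called 2656 rows against IFN, 2650 against AZA and 1833 for the genotype difference, and limma voom with quality weights called 262 for the last. With only the groups compared in the fit, 757 rows differed from AZA and 298 by genotype. Leaving out 1 library gave 1092 to 1451 rows against IFN, 1039 to 1565 against AZA and 524 to 1124 for the genotype difference, and leaving out VF vehicle libraries 1 and 4 together, chosen after seeing the data, gave 328. The causes were not tested. With the replicate number as a replicate block, the counts were 3157, 1443, 1371 and 656. The numbers did not pair the libraries, since the correlations of deviations of COMBO with vehicle libraries 2, 3 and 4 were 0.00617, -0.00866 and -0.0113. Differently numbered libraries reached 0.0187 (COMBO 3 and vehicle 4). Of 148 genes named and tested, 137 were called, and 117 of these kept direction and call in every alternative run; no called gene reversed. Depth limits genes near 0 in 1 group, whose lower bounds rest on 3 counts. Results with TMM factors from all rows before the filter, or without the library labelled VFDM IFN 3, both added after seeing the data, kept the counts of all rows in the 4 comparisons within 1.5-fold; without that library the erythroid genes higher in COMBO than in IFN numbered 9, against 16 with it. Of the 15 genes named for a genotype difference, limma voom did not call Alas2, Tent5c, Cdt1 and Isg15, the fit of the 4 groups alone did not call Alas2 and Isg15, and the fit without VF vehicle libraries 1 and 4 did not call Alas2, Glrx5 and Isg15.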
